A study of Mus musculus with 7 samples.

Results

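Carbonic anhydrases are zinc enzymes that interconvert carbon dioxide and bicarbonate, releasing or taking up a proton, and so set the pH inside and around a cell. Family members differ in where they sit: some face the outside of the plasma membrane, 1 is secreted, some stay in the cytosol, and some act in mitochondria. In tumours the best known is Car9, a membrane enzyme switched on by hypoxia-inducible factors (HIF) when oxygen is low. This report describes 10 members, Car2, Car3, Car4, Car5b, Car6, Car8, Car9, Car12, Car13 and Car14, among 19938 genes measured. Each had 1 probe set, found by its symbol in the platform annotation. They were chosen by symbol from 16 family genes with a probe set, with their levels on these arrays and the PECAM1+ against PECAM1- differences already known. Their own values are therefore given as a description, with no test.

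Total RNA of each sample was hybridised to 1 single-colour Affymetrix Mouse Gene ST array. Of 7 samples, 6 were B16F10, a pigmented mouse melanoma line, and 1 was mouse dermal endothelial cells (MDEC). By the PECAM status in the labels, the PECAM1- group held the parental B16F10 population and clone A1 (n = 2), and the PECAM1+ group held clones A2 to A5 (n = 4). PECAM1 (CD31) is a cell adhesion protein typical of blood vessel lining, and its own gene followed the labels: Pecam1 was at 5.27 and 5.43 log2 in the PECAM1- samples, 11.00 to 11.07 in the PECAM1+ clones and 11.72 in MDEC. Each clone is a single line, and the labels do not say whether the PECAM1+ clones arose separately. B16F10 cells were grown in DMEM with serum and MDEC in DMEM with an endothelial supplement, so cell type and medium cannot be told apart. The sources used here do not give cell density or oxygen at harvest.

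The labelled cell types matched their markers. Averaged over 7 melanocyte markers, the B16F10 arrays lay between 11.63 and 12.15 log2 and MDEC at 5.93. Averaged over 6 endothelial markers, the B16F10 arrays lay between 4.80 and 4.89 and MDEC at 10.76. Clone A1 stood apart within B16F10, with a mean of 6.82 over 4 proliferation genes (Mki67, Ccna2, Plk1, Top2a), against 10.89 in parental cells and 10.62 to 10.76 in the PECAM1+ clones. Differences from the PECAM1- group are therefore also given from parental cells and from clone A1 taken singly. Both use the same PECAM1+ arrays. Each B16F10 array is a different line and no line has a second array, so p-values measure the spread between these lines, and the spread between cultures of 1 line is not known. Array medians ran from 6.12 to 6.18, and with no detection calls the level at which a gene is above background was not known.

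Car9, Car14 and Car6 carried the largest differences among the 10 members, Car9 between B16F10 samples and Car14 and Car6 between B16F10 and MDEC, so the 200 bases before their starts are printed first. A promoter entry was found for 6 of the 10 members (Car4, Car5b, Car6, Car9, Car12 and Car14) in RefSeq sequences of build GRCm38.p6. Capitals mark matches, on either strand, to ACGTG or GCGTG, the core letters that HIF recognises, and to CACGTG or CATGTG, E-box letters recognised by helix-loop-helix factors such as the melanocyte regulator MITF. CACGTG contains ACGTG on both strands, so those matches overlap. The stretches are chr4:43506826-43507025 (plus strand) for Car9, chr3:95904686-95904885 (minus strand) for Car14 and chr4:150201136-150201335 (minus strand) for Car6, each 5′ to 3′ toward the gene.
Car9: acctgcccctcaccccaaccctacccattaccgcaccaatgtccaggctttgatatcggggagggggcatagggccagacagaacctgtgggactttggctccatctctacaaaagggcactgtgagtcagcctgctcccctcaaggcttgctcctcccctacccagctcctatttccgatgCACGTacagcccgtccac
Car14: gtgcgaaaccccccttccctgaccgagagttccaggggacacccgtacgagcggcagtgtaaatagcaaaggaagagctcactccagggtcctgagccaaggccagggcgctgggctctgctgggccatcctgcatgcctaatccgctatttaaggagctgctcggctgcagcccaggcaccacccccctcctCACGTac
Car6: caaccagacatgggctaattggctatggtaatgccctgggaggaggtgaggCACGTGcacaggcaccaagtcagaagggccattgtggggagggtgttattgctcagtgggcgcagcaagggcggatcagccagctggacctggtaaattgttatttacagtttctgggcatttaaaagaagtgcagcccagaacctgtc

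In Car9 the single match, to ACGTG, began 18 bases before the start, and in Car14 7 bases before it. In Car6 the CACGTG match began 149 bases before the start. Over all 32851 promoter windows of 300 bases in the table, 19.6% held ACGTG, 32.4% GCGTG, 7.15% CACGTG and 14.2% CATGTG. The Car6 window also held a GCGTG match that began 43 bases into the transcribed part, outside the printed stretch. The Car4 window held an ACGTG match at base 3 after the start, the Car5b window 5 matches to GCGTG and the Car12 window none of the 4 strings. Such matches describe letters and do not show that a factor binds there.

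Car9 was lower in every PECAM1+ clone than in either PECAM1- sample. Its log2 level was 7.58 in parental cells, 8.68 in clone A1, 6.28 in clone A2, 5.91 in A3, 5.77 in A4 and 5.85 in A5. The groups did not overlap, and clone A2 was the highest of the PECAM1+ clones. The PECAM1+ mean was 5.95 ± 0.23 (SD, n = 4) and the PECAM1- mean 8.13 ± 0.78 (SD, n = 2), a log2 difference of −2.18 ± 0.32 (SE), or 4.52-fold lower. From parental cells alone the log2 difference was −1.63 (3.09-fold lower) and from clone A1 alone −2.73 (6.61-fold lower), so both PECAM1- samples lay well above the clones, and clone A1 was itself 1.10 log2 above parental cells. MDEC, at 6.00, lay inside the range of the PECAM1+ clones. By the smallest root-mean-square difference between mean-centred log2 profiles over the 6 B16F10 arrays, the genes most like Car9 were Sectm1a (0.19 log2), the plastin gene Pls3 (0.21) and Zfp827 (0.34).

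**Figure D1:**
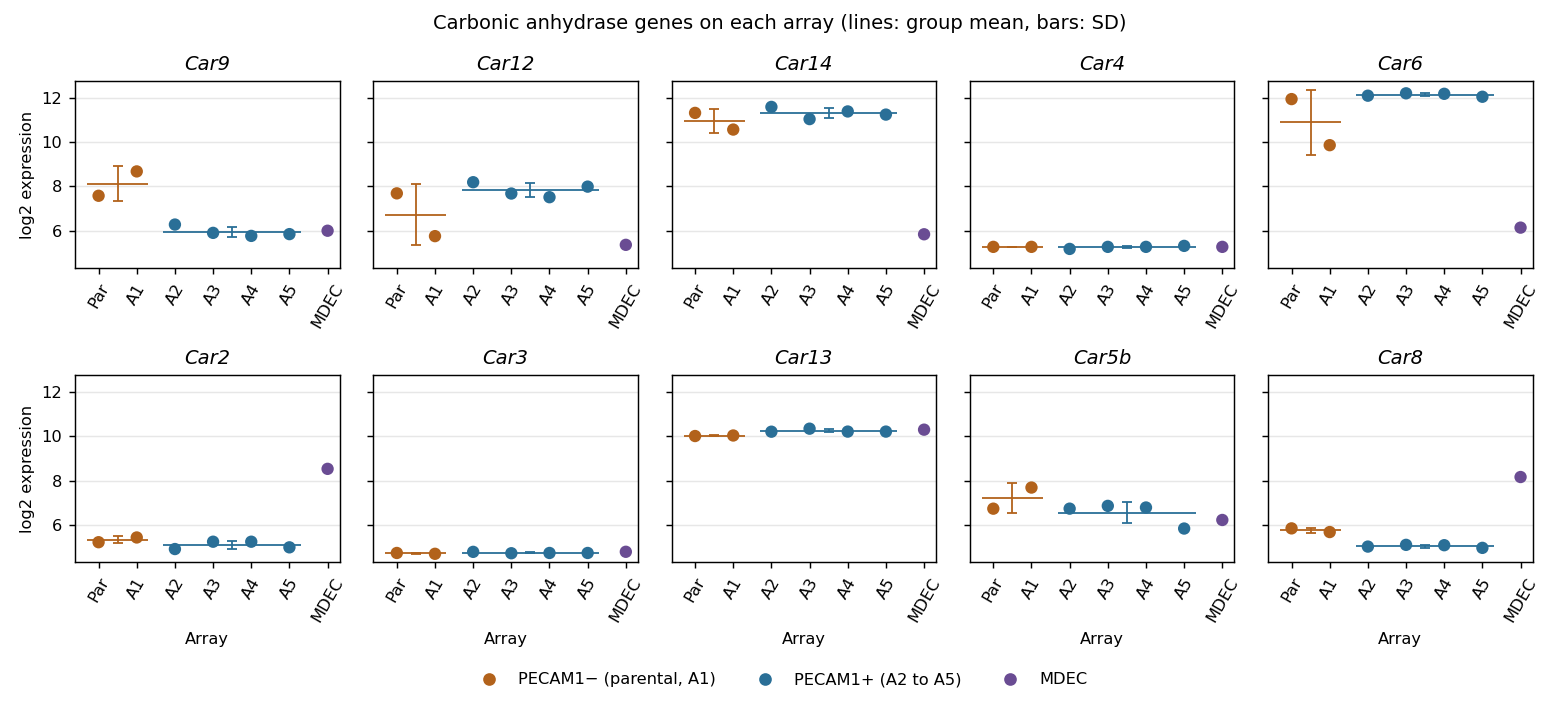
The log2 expression of each of the 10 members (y axis) on each of the 7 arrays (x axis; Par, parental cells), with group means as lines and SD as bars (n = 2 PECAM1-, n = 4 PECAM1+). Car9 and Car8 are higher in both PECAM1- samples than in any PECAM1+ clone, Car6 and Car12 are low in clone A1, and Car2 and Car8 are highest, Car6 and Car14 lowest, in MDEC.

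Car12 and Car14, like Car9, cross the membrane and have their active site outside the cell. Car12 was at 7.69 log2 in parental cells, 5.76 in clone A1, 8.19 in A2, 7.68 in A3, 7.52 in A4 and 7.99 in A5, with 5.37 in MDEC. Clone A1 alone was low within B16F10, and parental cells lay among the PECAM1+ clones. The log2 difference of 1.12 ± 0.54 (SE) from the PECAM1- group was accordingly 2.08 from clone A1 and 0.16 from parental cells. Car12 and Car9 thus differed in opposite directions from clone A1, Car12 4.24-fold higher and Car9 6.61-fold lower in the PECAM1+ clones.

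Car14 was at 11.32 log2 in parental cells, 10.56 in clone A1, 11.59 in A2, 11.04 in A3, 11.38 in A4 and 11.24 in A5. Clone A1 was again the lowest, and parental cells sat at the PECAM1+ mean of 11.31 ± 0.23 (SD, n = 4), with a log2 difference of −0.01. In MDEC it was at 5.84, 38.9-fold below B16F10. Over all 7 arrays the gene most like Car14 was Mlph (root-mean-square difference 0.12 log2), which encodes the melanosome transport protein melanophilin, followed by Gjc3 (0.16) and Emp3 (0.21). Within the 6 B16F10 arrays they were Mcc (0.06), Edaradd (0.07) and Zmat3 (0.07). Mitf moved the same way between the cell types, from 11.37 to 11.95 log2 in B16F10 to 7.34 in MDEC. The part of melanocyte identity in the level of Car14 was not tested.

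Car4, an enzyme tethered to the outer membrane by a lipid anchor, gave 5.28 log2 on 5 of the 7 arrays, with 5.18 in A2 and 5.32 in A5. The 5 values were identical, so the spread of this gene cannot be read. The whole range over 7 arrays was 0.14 log2.

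Car6 encodes the secreted carbonic anhydrase, best known from saliva. It was at 11.94 log2 in parental cells, 9.86 in clone A1, 12.09 in A2, 12.20 in A3, 12.18 in A4 and 12.04 in A5. The PECAM1+ clones were tightly grouped (12.13 ± 0.07, SD, n = 4), parental cells lay just under them and clone A1 far below. The log2 difference of 1.23 ± 0.55 (SE) from the PECAM1- group was 2.27 from clone A1 (4.81-fold) and 0.19 from parental cells (1.14-fold). In MDEC Car6 was at 6.14, 41.4-fold below B16F10. Over 7 arrays the genes most like it were Prkcq (0.21 log2), Gxylt2 (0.24) and Neto2 (0.29).

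Within B16F10, the profiles closest to Car6 and Car12 were those of genes that also dipped in clone A1. For Car6 they were Suv39h2 (root-mean-square difference 0.08 log2), a histone methyltransferase gene, Espl1 (0.09), which encodes separase, and Nsl1 (0.10), which encodes a kinetochore protein. For Car12 they were Ddx39a (0.13), the spindle gene Haus4 (0.13) and the DNA replication gene Dna2 (0.14). The proliferation genes were low in the same clone: Ccna2 was at 6.92 log2 there and 11.54 in parental cells, and Plk1 at 6.69 and 11.18. In MDEC the mean of the 4 proliferation genes was 7.86 log2, above clone A1 (6.82) and below the other B16F10 arrays. The part of low proliferation in the Car6 and Car12 values, in clone A1 or in MDEC, was not tested.

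**Figure D2:**
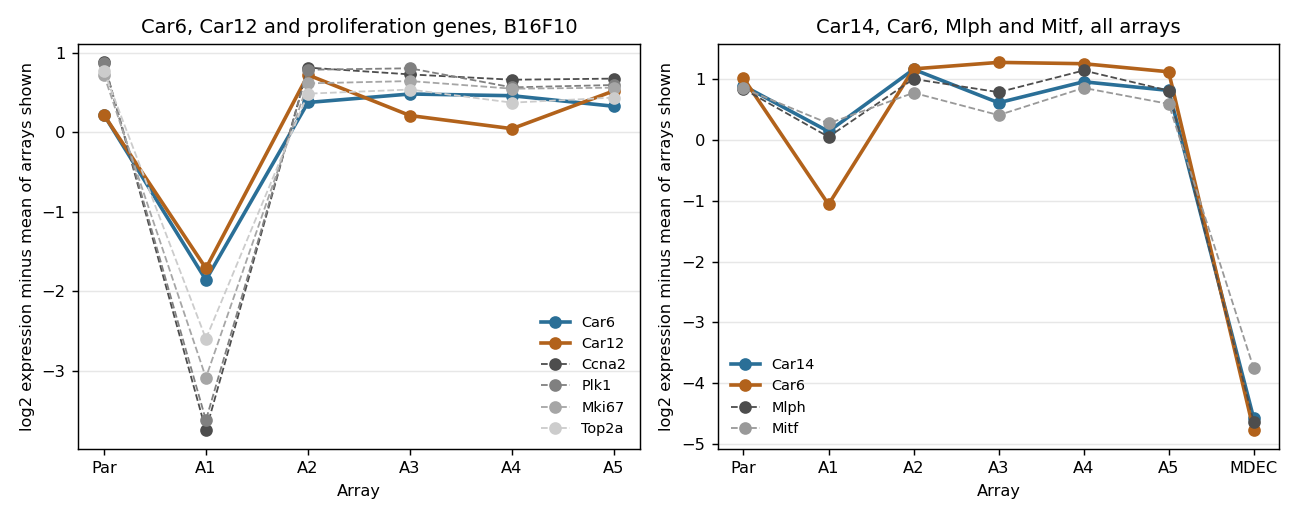
Log2 expression minus the mean of the arrays shown (y axis) for each array (x axis). At left Car6 and Car12 (solid) dip in clone A1 together with 4 proliferation genes (dashed), and at right Car14 and Car6 (solid) are low in MDEC, as are Mlph and Mitf (dashed).

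The cytosolic enzymes Car2, Car3 and Car13 lie close together on chromosome 3, in the order Car13, Car1, Car3, Car2 in the RefSeq annotation, and differed in how their levels varied. Car2, a fast enzyme known from red blood cells and osteoclasts, was at 5.22 log2 in parental cells, 5.43 in clone A1, 4.91 in A2, 5.24 in A3, 5.24 in A4 and 4.99 in A5. The 6 B16F10 arrays stayed within 0.52 log2 of each other, while MDEC was at 8.53, 9.96-fold above them. Its neighbours showed no such step: Car3, known from muscle and fat, ran from 4.70 to 4.79 log2 over all 7 arrays, and Car1, a red cell enzyme outside the 10 members, was at 4.82 in MDEC, inside its B16F10 range.

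Car13 was at 10.01 log2 in parental cells, 10.03 in clone A1, 10.20 in A2, 10.34 in A3, 10.21 in A4 and 10.21 in A5, with 10.29 in MDEC. All 4 PECAM1+ clones lay above both PECAM1- samples, by 0.22 ± 0.08 (SE) log2, a 1.16-fold difference (0.23 from parental cells and 0.21 from clone A1). MDEC lay inside the range of the PECAM1+ clones.

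The genes most like Car2 over the 7 arrays were the scavenger receptor gene Scarf1 (0.11 log2), Tmtc2 (0.11) and Lpin3 (0.12). Of 5 leukocyte markers, Lyz2 and Cd68 were high in MDEC (11.76 and 11.18 log2). Cd68 was also at 10.07 in clone A1, and Lyz2 at 6.34 to 8.03 in the PECAM1+ clones. Ptprc, which defines leukocytes, was at 4.99 in MDEC as on most B16F10 arrays. Itgam was at 4.84 in MDEC and 4.64 to 4.83 in B16F10, and Cd14 at 6.37 and 5.06 to 5.28. The mean of the 5 was 7.83 in MDEC and 5.59 to 6.25 in B16F10. The 3 measured erythroid markers averaged 5.55 in MDEC and 5.59 to 5.75 in B16F10. The part of other cell types in the Car2 level of MDEC was not tested, and in such bulk samples fewer cells of a type and less RNA per cell cannot be told apart.

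Car5b, a mitochondrial enzyme, varied most among the PECAM1+ clones. It was at 6.73 log2 in parental cells, 7.68 in clone A1, 6.73 in A2, 6.86 in A3, 6.78 in A4, 5.84 in A5 and 6.22 in MDEC. Clone A1 was high and clone A5 low, with the other B16F10 arrays within 0.13 log2 of each other. The log2 difference of −0.65 ± 0.40 (SE) was −1.13 from clone A1 and −0.18 from parental cells. The B16F10 profiles most like it were those of Tmem53 (0.17 log2), the elongation factor gene Ell2 (0.18) and 6430548M08Rik (0.19).

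Car8 encodes a related protein that lacks enzyme activity and is known from cerebellar Purkinje cells. It was at 5.84 log2 in parental cells, 5.68 in clone A1, 5.02 in A2, 5.10 in A3, 5.08 in A4 and 4.96 in A5. Both PECAM1- samples lay above all PECAM1+ clones, and the log2 difference of −0.72 ± 0.06 (SE) was −0.80 from parental cells and −0.63 from clone A1. All B16F10 values of Car8, like those of Car2, were dim, below the array medians of 6.12 to 6.18 log2. MDEC, at 8.16, lay 6.76-fold above B16F10. Over 7 arrays the most similar genes were Tmem223 (0.19 log2), Ramp2 (0.19), a receptor partner in adrenomedullin signalling, and Tbc1d9 (0.22).

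Counted over the 10 members, groups that did not overlap and lay at least 2-fold apart were found for 1 lower gene, Car9, and 1 higher gene, Car6, in the PECAM1+ clones. Over all genes 0.326% were lower and 0.502% higher by that rule. From parental cells 1 member was at least 2-fold lower and 0 higher (all genes 0.201% and 0.456%), and from clone A1 2 were lower (Car9, Car5b) and 2 higher (Car6, Car12), where all genes gave 3.25% and 3.32%. The median log2 difference was 0.01 over the members and 0.00 over all genes. In MDEC, 2 members (Car2, Car8) were at least 4-fold higher and 2 (Car6, Car14) at least 4-fold lower than B16F10 and outside its range, where all genes gave 2.72% and 2.01%. Since these contrasts were known when the members were chosen, nothing is read from these counts. A total of 4 members (Car2, Car3, Car4, Car13) had the same value on more than 1 array, as did 54.0% of all genes, which can make a spread too small.

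**Figure D3:**
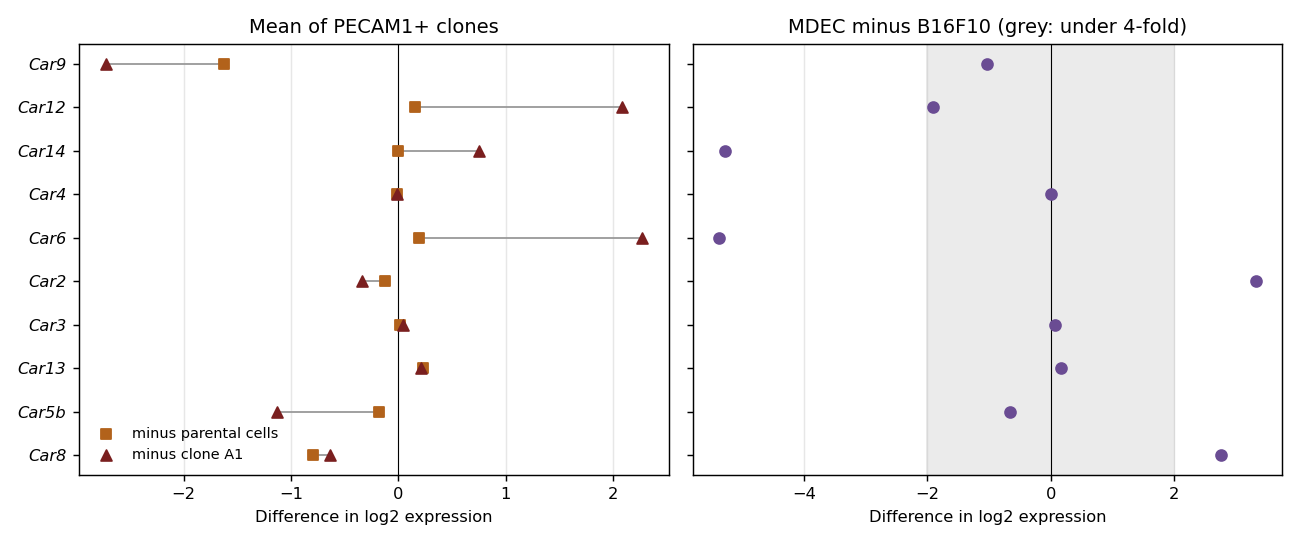
Difference in log2 expression (x axis) for the 10 members: at left the PECAM1+ mean minus parental cells (squares) and minus clone A1 (triangles), at right MDEC minus the mean of the B16F10 group means. Car9 lies left of 0 against both PECAM1- samples, while Car6 and Car12 lie far right only against clone A1, and 4 members lie outside the grey 4-fold band in MDEC.

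Genes linked to the members by family, transport or oxygen response were tested between PECAM1+ and PECAM1- samples with limma over all 19938 genes. Of 69 genes in 5 lists, 0 passed the adjusted threshold of 0.05, where 2 genes of all (0.0100%) passed. Of the same 69, 13 had an unadjusted limma p under 0.05, a larger share than the 9.18% of all genes. The lists were chosen with earlier results of these data known, so nothing is read from that share. The smallest adjusted p in the lists was 0.317. The median log2 differences were −0.11 for 8 other carbonic anhydrase and related genes, −0.02 for 14 bicarbonate transport genes, −0.05 for 17 proton and lactate transport genes, −0.04 for 9 oxygen sensing genes and −0.13 for 21 HIF targets, against 0.00 for all genes.

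Among the other family genes, Car11, a related protein without enzyme activity, had a log2 level of 7.73 in the parental population, 8.0 in clone A1 and, over clones A2 to A5, 7.26 ± 0.10 (SD, n = 4), a difference of −0.61 ± 0.11 (SE; limma adjusted p = 0.332). It was −0.47 from parental cells and −0.74 from clone A1. Ptprg, a receptor phosphatase with a carbonic anhydrase-like domain, differed by −0.51 ± 0.13 (−0.35 and −0.66). Car15 (−0.29 ± 0.14) and Car7 (−0.18 ± 0.11) rested on clone A1, from which they differed by −0.54 and −0.36, against −0.04 and 0.00 from parental cells.

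Genes of the bicarbonate transport list split by the PECAM1- sample used. Slc4a3 (−0.35 ± 0.13, SE) and Slc4a11 (−0.24 ± 0.08) were lower against both, by −0.15 and −0.13 from parental cells and −0.55 and −0.36 from clone A1. Slc4a5 (−0.28 ± 0.15) differed by −0.56 from parental cells and −0.01 from clone A1. Slc4a2 (0.17 ± 0.17) turned sign, with −0.10 from parental cells and 0.44 from clone A1.

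The lactate transporter genes lay on both sides. Slc16a3 was at 9.66 log2 in parental cells, 9.20 in clone A1 and 8.13 to 9.05 in the PECAM1+ clones, a difference of −0.80 ± 0.31 (SE), with −1.04 from parental cells and −0.57 from clone A1. Slc16a1 differed by 0.51 ± 0.17 (0.21 and 0.80), and Emb, which encodes a partner of such transporters, by 0.40 ± 0.20 (0.16 and 0.65). The sodium-proton exchanger gene Slc9a9 (−0.54 ± 0.41) turned sign, with 0.16 from parental cells and −1.24 from clone A1. Limma adjusted p for these 4 ran from 0.484 to 0.596.

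Oxygen sensing genes and HIF targets were read beside Car9. Hif1an, which encodes the asparagine hydroxylase that restrains HIF, differed by −0.53 ± 0.13 (SE) log2 (−0.39 from parental cells and −0.67 from clone A1), and Epas1 (HIF-2 alpha) by −0.45 ± 0.13 (−0.39 and −0.51). Arnt, the shared HIF partner (−0.45 ± 0.20), differed mainly from clone A1 (−0.79) and by −0.10 from parental cells. The prolyl hydroxylase gene Egln3 (0.45 ± 0.40) turned sign, with −0.18 from parental cells and 1.09 from clone A1.

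Of the HIF targets, Ddit4 had log2 levels of 7.89 in parental cells, 7.59 in clone A1 and 8.52 to 9.07 in the PECAM1+ clones (difference 1.09 ± 0.19, SE; 0.95 and 1.24), opposite to Car9. Bnip3 (−0.83 ± 0.24) and the glucose transporter gene Slc2a1 (−0.58 ± 0.14) had the sign of Car9 against both, with −0.57 and −0.59 from parental cells and −1.09 and −0.57 from clone A1. Kdm3a (−0.67 ± 0.30) rested on clone A1 (−1.22), with −0.12 from parental cells. None of these passed over all genes (limma adjusted p from 0.317 to 0.637 for the named sensing and target genes), and 9 of the 21 targets were higher in the PECAM1+ clones.

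**Figure D4:**
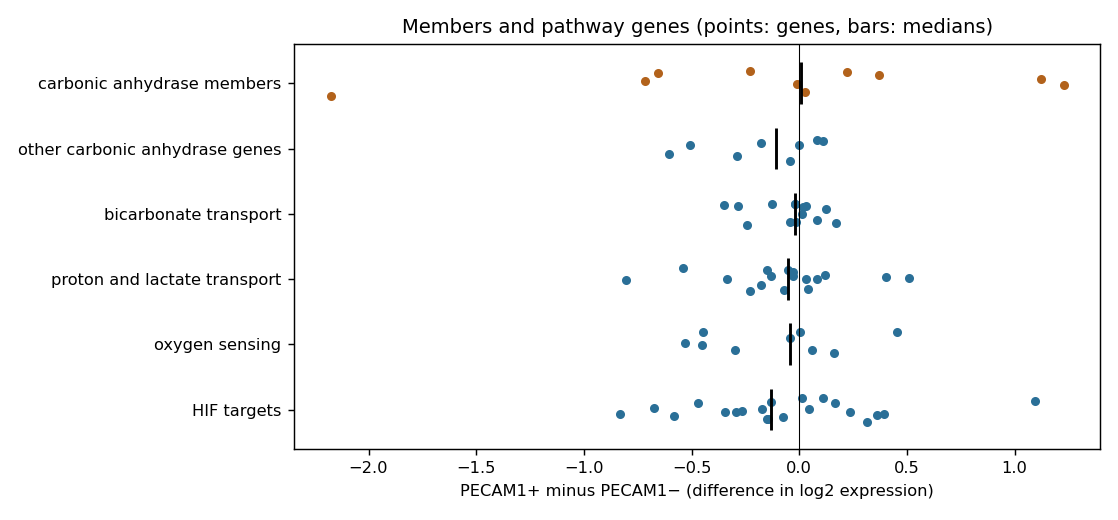
Difference in log2 expression, PECAM1+ minus PECAM1- (x axis), for the 10 members (top row) and the genes of 5 lists (other rows), each point a gene and each bar the median of its row; the vertical jitter has no meaning. The row medians lie between −0.13 and 0.01, and Car9 lies farthest from 0 of the genes shown.

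The fits against a single PECAM1- sample assume that the lone array varies like the others. Against parental cells 0 of the 69 genes passed (2 of all genes, 0.0100%) and 7 had an unadjusted p under 0.05, as did 13.5% of all genes. Against clone A1 limma called 7 as higher and 14 as lower in the PECAM1+ clones, which is 10.1% and 20.3% of the lists, where 9.33% and 11.2% of all genes were called. The proton pump genes Atp6v1a (−0.30), Atp6v1b2 (−0.56) and Atp6v0d1 (−0.43) were among the lower ones, while from parental cells they differed by 0.46, −0.11 and 0.14. In the family list Car11 (−0.74), Ptprg (−0.66), Car15 (−0.54) and Car7 (−0.36) were lower than in clone A1, and Car10 (0.15) and Ptprz1 (0.27) higher. From parental cells Car10 and Ptprz1 differed by 0.02 and −0.06. Both were dim, at 4.63 to 4.79 log2 for Car10 and 3.28 to 3.60 for Ptprz1 in B16F10. Ptprz1 and Car15 had the same value on 4 of the 7 arrays and Car7 on 3, which can make a spread too small. HIF targets were called in both directions, with Vegfa (−1.20), Kdm3a and Bnip3l (−0.58) lower and Ddit4, Ldha (0.64) and Mif (0.29) higher. From parental cells Vegfa differed by 0.25, Bnip3l by −0.01, Ldha by −0.01 and Mif by 0.05, and none passed.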

How the data were processed

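The deposited table holds a log2 expression value for each probe set on each array. The authors used Partek, per the submitters' processing notes. The sources used here give neither its version nor the summarisation, background correction, normalization or genome build. The log2 scale was read from the values (1.39 to 13.5). Of 35557 probe sets, 21789 carried 1 symbol in the platform annotation, and a gene was taken from its brightest probe set over 7 arrays. Groups follow the PECAM status in the labels. The PECAM groups were tested with limma 3.58.1 under R 4.3.3 (eBayes with trend, two-sided, Benjamini-Hochberg over 19938 genes, threshold 0.05), MDEC left out. The fit was run on simulated data in which every array had the spread of the PECAM1+ clones. That check does not cover a wider spread between the PECAM1- samples. MDEC had 1 array, so its differences from B16F10 (average of both group means) have no test. Genes most like a member were taken where it ranged over at least 1 log2 in B16F10 or lay at least 4-fold away in MDEC. From each list the called genes and up to 4 with the largest difference were named. Genes named against clone A1 alone were chosen after their values were seen. The members and lists were chosen with earlier results of these data known. Some list genes were not analysed here. The number of arrays limits the precision.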

Additional observations from a re-analysis of the deposited data

Results flagged for a closer look

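Among 30 genes looked at in the 4 PECAM1+ clones, 4 had 1 clone whose gap to its neighbour took up most of the group's range. Chance flags about 1 in 20 such groups. Car5b was at 5.84 log2 in clone A5, with the other clones between 6.73 and 6.86. Car13 was at 10.34 in clone A3, with the others between 10.20 and 10.21. Clones A4 and A5 shared 1 Car13 value, and the range over the 4 clones was only 0.14 log2. Slc4a3 was at 7.88 in clone A4 and Slc4a11 at 6.42 in clone A2, and in both genes the other 3 clones shared 1 value (7.99 and 6.51), so the gap rests on identical values.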

How the results depend on the processing

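Between groups that did not overlap, 2 members lay at least 2-fold apart, and 4 lay at least 4-fold from B16F10 in MDEC. Both numbers were the same under quantile normalization and median centring. A mean over probe sets could change neither, since each member had 1 probe set. The first number does not depend on the eBayes trend, and the filter on dim genes, which alters no value, left it at 2. Leaving out 1 array gave 1 to 4 members, 4 without parental cells and 1, Car9, without clone A1. For single members, 46 of 46 values between PECAM groups moved by less than 1 SD under other processing (4 members are dimmer than the filter). Only those under quantile normalization and median centring could move, and the rest equal the main values by construction. With an array left out, 10 of 60 moved by more than 1 SD, each time a PECAM1- sample. The MDEC values of Car3 and Car4 moved under quantile normalization, to 0.00 and −0.06. Genes called by limma between PECAM groups numbered 2, and 6 with quantile normalization, 6 with median centring, 5 with the filter on dim genes and 1 to 4089 with 1 array left out (4089 without parental cells). Against parental cells they numbered 2, and 8 with median centring and 7 with the filter. Pathway genes called numbered 0 in all settings but that without parental cells (0 to 21 with 1 array left out). The setting without parental cells is the same fit as that against clone A1 alone, and the setting without clone A1 is the fit against parental cells. The cause of the other changes was not tested. No paired analysis was possible because the labels give the groups no shared replicate numbers.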

Other observations

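Outside the 10 members, 2 of the 69 list genes lay at least 4-fold higher and 2 at least 4-fold lower than B16F10 in MDEC and outside its range, where all genes gave 2.72% and 2.01%. Adm, which encodes the vasodilator peptide adrenomedullin, was at 9.93 log2 in MDEC, 5.15 above B16F10, and Egln3 at 10.16, 4.05 above it. Emb was at 3.89 (−5.96) and the sodium bicarbonate cotransporter gene Slc4a4 at 5.23 (−2.11). The log2 level of Car9 in MDEC was 6.00, inside its B16F10 range. There was 1 MDEC array, so no test was made.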
